A study of Mus musculus with 16 samples.

Results

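The calcium/calmodulin-dependent protein kinases (CaM kinases) of cultured mouse cortical neurons were followed on Affymetrix Mouse Genome 430 2.0 arrays. The set was chosen by name, as every probe set whose only gene symbol in the array's annotation was one of 10 kinase genes, and it held 31 of the 45101 probe sets. These stood for 9 genes, namely Camkk2 on chromosome 5, Camk1 on chromosome 6, Camk1d on chromosome 2, Camk1g on chromosome 1, Camk4 and Camk2a on chromosome 18, Camk2b on chromosome 11, Camk2d on chromosome 3 and Camk2g on chromosome 14. For Camkk1, the tenth, only the promoter was analysed here.

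Cortical cells were taken from C57BL/6 embryos at embryonic day 16.5 and infected after 5 days in vitro with a lentivirus that carried an shRNA against c-Fos or, in the control arm, an shRNA against firefly luciferase, which mouse cells lack. At 7 days in vitro the cultures of both arms were silenced and then depolarised with KCl for 0, 1, 3 or 6 h, the 0 h cultures being silenced only. The 8 groups were therefore c-Fos shRNA at 0, 1, 3 and 6 h and control shRNA at 0, 1, 3 and 6 h, each with 2 arrays labelled as biological replicates. All groups shared the strain, the 6 h exposure to virus with 6 µg/mL polybrene, and the silencing; 1 shRNA is named for each arm, so the sequence of the shRNA and the loss of c-Fos cannot be told apart, and the share of cells infected is not given in the sources used here.

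CaM kinases are the enzymes that carry a rise in neuronal calcium from calmodulin to protein phosphorylation. CaMKK2, the product of Camkk2, is the upstream kinase that activates CaMKI (Camk1, Camk1d, Camk1g) and the mostly nuclear CaMKIV (Camk4), which phosphorylates CREB. CaMKII (Camk2a, Camk2b, Camk2d, Camk2g) forms large holoenzymes of mixed subunits that stay active after calcium has fallen and is best known for its part in synaptic plasticity, its alpha and beta subunits being the main forms of forebrain neurons.

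The targeted gene was measured first. Fos read 118 and 152 at 0 h, 7728 and 9623 after 1 h, 3763 and 4297 after 3 h and 3142 and 3340 after 6 h in c-Fos shRNA cultures. Fos in control shRNA cultures read 261 and 232 at 0 h, 14633 and 14719 after 1 h, 13638 and 13308 after 3 h and 11960 and 11898 after 6 h. Every c-Fos shRNA array was below both control arrays of its time, and the log2 difference (c-Fos minus control shRNA) was -0.77 before KCl, -0.75 after 1 h, -1.74 after 3 h and -1.85 after 6 h (limma, adjusted p from 1.25e-06 to 0.000454). Fos therefore still rose with KCl in the c-Fos shRNA arm, by 4.45 on the log2 scale at 6 h. The median intensity of the 16 arrays lay between 104.75 and 118.56. After normalisation the 2 arrays of a group correlated with r between 0.985 and 0.992 over the 31526 probe sets that were tested. All 6 general neuronal markers (Rbfox3, Tubb3, Map2, Snap25, Syt1, Stmn2) were above the filter on dim probe sets, and 5 of the 6 microglial markers were not.

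Of the 31 kinase probe sets, 27 were above that filter, a mean over the 16 arrays above the 30th percentile, and were tested; the 4 others were dim probe sets of Camk2a (1452453_a_at and 1441734_at), Camk2d (1444031_at) and Camk4 (1452572_at), whose intensities stayed between 1.66 and 79.7. The tested probe set nearest the limit was Camkk2 1424476_at, 0.32 above it on the log2 scale, and the nearest one left out was Camk2d 1444031_at, 0.05 below it. Each of the 9 genes was represented by its brightest probe set, and the other 18 tested probe sets were kept as further readings of the same genes. Intensities of different probe sets were not compared with each other.

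Over the 4 times together, Camk2d, Camk2g and Camk2a were lower in c-Fos shRNA cultures and Camkk2 was higher, which made 4 of 9 genes (limma, adjusted p under 0.05). That share was near the background of 39.1% of all tested probe sets. By probe set, 12 of 27 were lower and 2 higher, beside backgrounds of 19.4% lower and 19.7% higher, and the median difference was -0.27 for the 27 probe sets and -0.08 for the 9 genes, against -0.01 for all tested probe sets. The lower probe sets belonged to Camk2d, Camk2a, Camk2g and Camk4 alone, the first 3 genes having several each. They are therefore repeated readings of few genes, and by the brightest probe set 3 of 9 genes were lower. At single times Camk2d alone passed at 0 h (1 of 9 genes, background 15.6%) and 1 h (1 of 9, background 14.5%). Camk2d and Camk2g passed at 3 h (2 of 9, background 17.1%) and 6 h (2 of 9, background 17.2%). Because the replicate numbers were taken to pair the arrays, a fit with that number as a term was also run, and it called more of all probe sets too. Over the 4 times it called 7 of 9 genes, the 4 CaMKII genes and Camkk2, Camk1 and Camk4, against 52.8% of all tested probe sets. At 0, 1, 3 and 6 h it called 6, 4, 4 and 4 of 9, against 29.7%, 28.6%, 31.7% and 32.6%. The arrays measure RNA of whole cultures, in which fewer cells that express a kinase and less of its RNA per cell cannot be told apart.

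With KCl, by the brightest probe set, at most 2 of 9 genes passed in an arm and time. The arm difference at single times also reached at most 2 of 9. At 1 h none of the 9 passed in either arm (0 of 27 probe sets in each; 2.96% of all tested probe sets in c-Fos shRNA and 3.11% in control shRNA cultures). At 3 h Camk1g and Camk2g fell in c-Fos shRNA cultures (2 of 9 genes, background 20.9%), and Camk1g fell in control shRNA cultures (1 of 9, background 23.3%). At 6 h Camk2g fell in c-Fos shRNA cultures (1 of 9, background 32.1%), and Camk1d rose and Camk2g fell in control shRNA cultures (2 of 9, background 35.4%). These shares were near or below the background. By probe set, 5 of 27 passed at 3 h and 6 of 27 at 6 h in c-Fos shRNA cultures. In control shRNA cultures 2 of 27 passed at 3 h and 8 of 27 at 6 h. With the replicate number in the fit, the counts of genes at 1, 3 and 6 h were 0, 3 and 4 of 9 in c-Fos shRNA cultures, against 7.44%, 34.5% and 45.6% of all tested probe sets. In control shRNA cultures they were 0, 2 and 5 of 9, against 7.61%, 36.6% and 48.6%. No member passed the test of the difference between the arms' KCl responses at 1, 3 or 6 h (backgrounds of 0.00634%, 0.155% and 0.387%). With the replicate number in the fit 2 genes passed at 6 h, Camk1 and Camk1d, and the backgrounds were 0.114%, 1.80% and 5.44%.

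**Figure D1:**
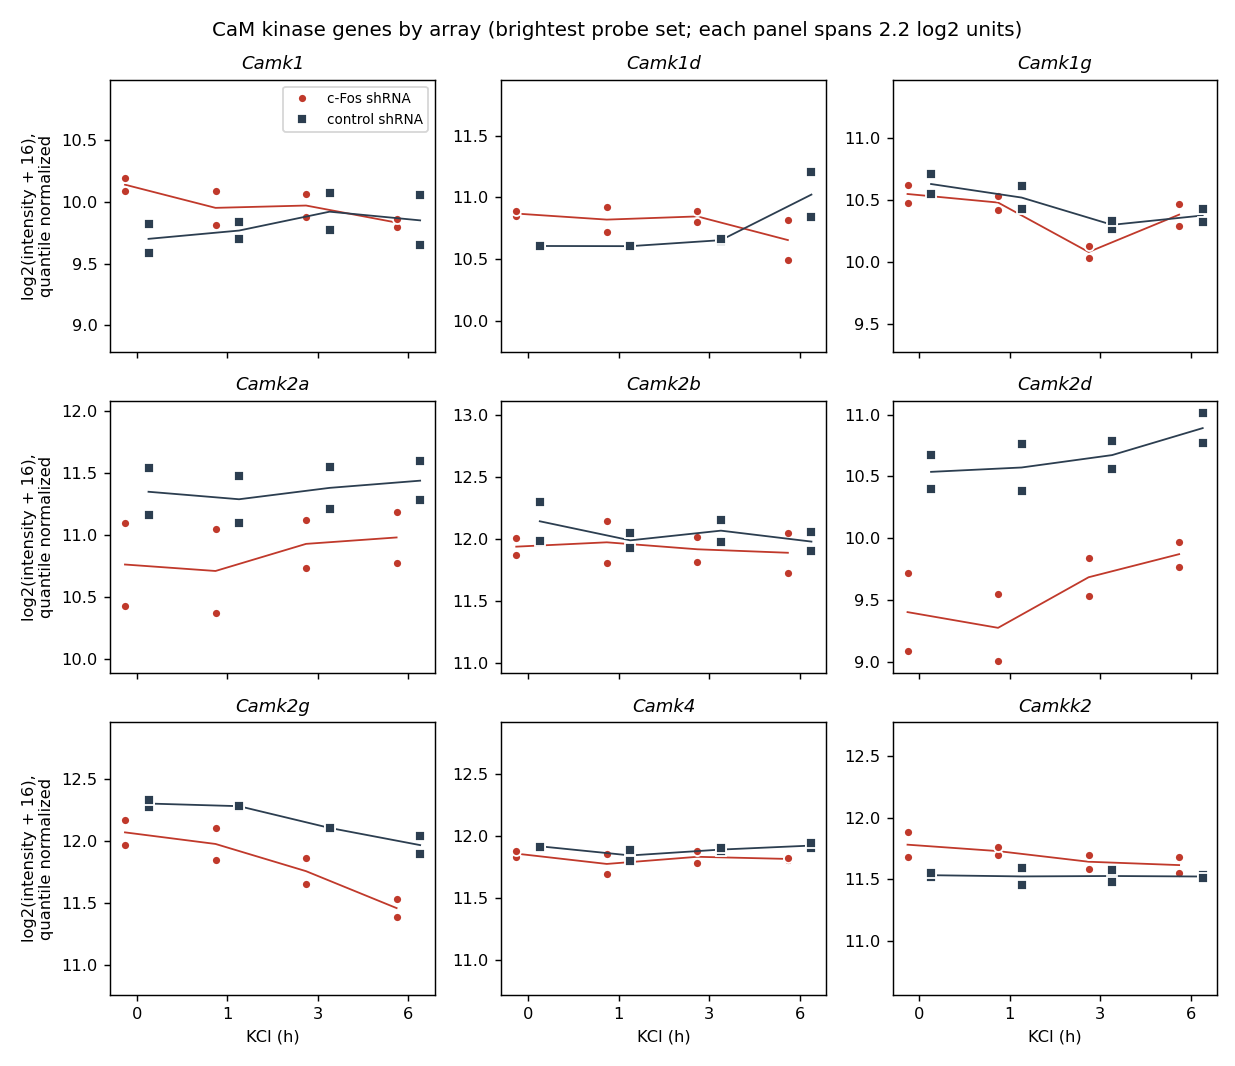
Normalised log2 intensity of the brightest probe set of each of the 9 kinase genes on every array, by hours of KCl (spaced evenly, not to scale), with c-Fos shRNA arrays as circles and control shRNA arrays as squares and lines through the group means. Camk2d is the only panel in which the 8 c-Fos shRNA arrays all lie below the 8 control shRNA arrays; Camk2g slopes down in both arms, and Camk4 is level.

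Camkk2, the activating kinase of the cascade, was slightly higher with c-Fos shRNA. Its brightest probe set, 1455401_at, read 3613 and 3278 at 0 h, 3316 and 3488 after 1 h, 3291 and 3095 after 3 h and 3183 and 3014 after 6 h in c-Fos shRNA cultures. 1455401_at in control shRNA cultures read 2858 and 2952 at 0 h, 3096 and 2861 after 1 h, 3068 and 2878 after 3 h and 2954 and 2927 after 6 h. All 8 pairs of arrays with the same time and replicate number were higher in c-Fos shRNA cultures, although the ranges of the 2 arms overlapped. The difference over the 4 times was 0.16 ± 0.04 log2 units (SE, n = 8 arrays an arm; limma, adjusted p = 0.00619), a ratio of 1.12. No single time passed. The 0 h difference of 0.25 had an adjusted p of 0.0608, and 0.00741 with the replicate number in the fit, and the 1 h difference of 0.20 had 0.124, and 0.0225 with it. Of the other 3 Camkk2 probe sets, 1424474_a_at and 1424475_at were also higher in 8 of 8 pairs, with differences of 0.14 (adjusted p = 0.167) and 0.20 (adjusted p = 0.0752) that passed only with the replicate number in the fit (0.00138 and 0.000196). The dimmest, 1424476_at, was higher in 7 of 8 pairs and did not pass (0.21, adjusted p = 0.375). KCl did not move Camkk2 past the threshold at any time; the 6 h change in c-Fos shRNA cultures was -0.16 (adjusted p = 0.15, and 0.0417 with the replicate number in the fit) and that in control shRNA cultures -0.01.

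Of the CaMKI genes, Camk1g codes for the membrane-anchored CaMKI gamma, and it fell at 3 h in both arms. Its only probe set, 1424633_at, read 1498 and 1449 at 0 h, 1387 and 1496 after 1 h, 1013 and 1094 after 3 h and 1197 and 1417 after 6 h in c-Fos shRNA cultures. 1424633_at in control shRNA cultures read 1465 and 1654 at 0 h, 1413 and 1612 after 1 h, 1203 and 1269 after 3 h and 1229 and 1364 after 6 h. The 3 h arrays of each arm were below both of its 0 h arrays, and in c-Fos shRNA cultures the 6 h arrays lay between them. The 3 h change was -0.47 ± 0.10 (SE) in c-Fos shRNA cultures (limma, adjusted p = 0.00544) and -0.33 ± 0.10 in control shRNA cultures (adjusted p = 0.0333). At 6 h it was -0.17 (adjusted p = 0.248) and -0.25 (adjusted p = 0.0709, and 0.0124 with the replicate number in the fit). The change in the 2 arms was not shown to differ at 3 h (-0.14 ± 0.14, adjusted p = 1). Between the arms Camk1g differed by -0.22 at 3 h (adjusted p = 0.178, and 0.0401 with the replicate number in the fit) and by -0.08 over the 4 times (adjusted p = 0.221). The 3 h call in c-Fos shRNA cultures was lost when 0 h replicate 1 or 3 h replicate 1 was left out (adjusted p up to 0.0558), and that in control shRNA cultures when 0 h replicate 2, 3 h replicate 1 or 3 h replicate 2 was left out (adjusted p up to 0.22).

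Camk1d, which codes for CaMKI delta, passed at 6 h in control shRNA cultures alone, and the difference between the arms' responses did not pass. Probe set 1452050_at read 1759 and 1911 at 0 h, 1948 and 1707 after 1 h, 1853 and 1753 after 3 h and 1734 and 1435 after 6 h in c-Fos shRNA cultures. 1452050_at in control shRNA cultures read 1525 and 1543 at 0 h, 1591 and 1606 after 1 h, 1591 and 1608 after 3 h and 2335 and 1818 after 6 h. Both c-Fos shRNA arrays were above both control arrays at 0, 1 and 3 h and below both at 6 h. The 6 h KCl change was -0.21 in c-Fos shRNA cultures (limma, adjusted p = 0.235) and 0.42 ± 0.13 in control shRNA cultures (adjusted p = 0.0225). The difference between those changes was -0.63 ± 0.18 (adjusted p = 0.18, and 0.0181 with the replicate number in the fit), and the difference between the arms at 6 h was -0.37 (adjusted p = 0.0685, and 0.00993 with it). The rise in control shRNA cultures rested on few arrays: without 6 h replicate 1 it was 0.23 (adjusted p = 0.223), and it also failed without either 0 h array and when all Camk1d probe sets were averaged (0.48, adjusted p = 0.138). The other probe sets gave no call. 1426389_at changed by -0.16 in c-Fos shRNA and 0.43 in control shRNA cultures at 6 h (adjusted p = 0.826 and 0.485). The dim 1438643_at changed by -0.29 and 0.61 (adjusted p = 0.541 and 0.153), and its 3 h change of 0.88 in control shRNA cultures had an adjusted p of 0.0618, and 0.0126 with the replicate number in the fit. With that number in the fit, 1438643_at was also lower in c-Fos shRNA cultures at 6 h (-0.77, adjusted p = 0.119 without it and 0.0295 with it) and over the 4 times (-0.34, 0.104 and 0.0327).

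Camk1, which codes for CaMKI alpha, did not pass in any comparison by its brightest probe set. Probe set 1417604_at read 1029 and 1191 at 0 h, 912 and 1103 after 1 h, 906 and 1047 after 3 h and 837 and 923 after 6 h in c-Fos shRNA cultures. 1417604_at in control shRNA cultures read 750 and 892 at 0 h, 851 and 951 after 1 h, 840 and 1051 after 3 h and 744 and 1030 after 6 h. The arms were apart only at 0 h, where both c-Fos shRNA arrays were higher, by 0.44 ± 0.16 (limma, adjusted p = 0.0855, and 0.00117 with the replicate number in the fit). Over the 4 times the difference was 0.16 (adjusted p = 0.123, and 0.00447 with it). The 6 h KCl change was -0.31 in c-Fos shRNA cultures (adjusted p = 0.168, and 0.00808 with it) and 0.15 in control shRNA cultures (adjusted p = 0.514), and their difference was -0.46 (adjusted p = 0.486, and 0.0407 with it). The second Camk1 probe set, 1417605_s_at, was higher in c-Fos shRNA cultures over the 4 times by 0.17 ± 0.06 (adjusted p = 0.0489). That call was lost in 12 of the 16 fits that left out 1 array (adjusted p up to 0.121), without further normalisation and without the filter.

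Camk4, the CREB kinase, was the steadiest of the 9 genes by the range of its brightest probe set. Probe set 1439843_at read 3480 and 3788 at 0 h, 3298 and 3730 after 1 h, 3717 and 3572 after 3 h and 3520 and 3637 after 6 h in c-Fos shRNA cultures. 1439843_at in control shRNA cultures read 3752 and 3760 at 0 h, 3541 and 3837 after 1 h, 3791 and 3835 after 3 h and 3842 and 4007 after 6 h. Its 8 group means spanned 0.15 log2 units, against 1.61 for Camk2d. No comparison passed for it; the difference over the 4 times was -0.07 ± 0.03 (limma, adjusted p = 0.0888, and 0.0373 with the replicate number in the fit). A much dimmer probe set of the gene, 1421941_at, had from 80.0 to 109 units in c-Fos shRNA and from 84.2 to 149 in control shRNA cultures, and was lower in c-Fos shRNA cultures over the 4 times by -0.31 ± 0.08 (adjusted p = 0.00609) and at 6 h by -0.50 (adjusted p = 0.0414). The 6 h call was lost when any 1 of its 4 arrays was left out (adjusted p up to 0.197), without further normalisation (0.0652), with each array shifted to 1 median (0.0518) and without the filter (0.0711). The 2 others, 1426167_a_at and 1441974_at, differed by -0.27 each over the 4 times (adjusted p = 0.0881 and 0.231, with 0.00289 for 1426167_a_at when the replicate number was in the fit).

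Camk2d, which codes for the delta subunit of CaMKII, showed the largest difference between the arms among the 9 genes. Its brightest probe set, 1422659_at, read 514 and 865 at 0 h, 517 and 756 after 1 h, 700 and 895 after 3 h and 818 and 1004 after 6 h in c-Fos shRNA cultures. 1422659_at in control shRNA cultures read 1316 and 1618 at 0 h, 1369 and 1790 after 1 h, 1496 and 1761 after 3 h and 1701 and 2072 after 6 h. The highest of the 8 c-Fos shRNA arrays, 1004, was below the lowest of the 8 control shRNA arrays, 1316. The mean intensities at 0, 1, 3 and 6 h were 690, 637, 798 and 911 in c-Fos shRNA cultures, against 1467, 1580, 1628 and 1886 in control shRNA cultures. Within an arm the arrays of neighbouring times overlapped. In silenced cultures the log2 difference was -1.13 (limma, adjusted p = 0.00555). With KCl it was -1.30 after 1 h (0.00263), -0.99 after 3 h (0.0113) and -1.02 after 6 h (0.0101). Over the 4 times it was -1.11 ± 0.12 (SE; adjusted p = 1.07e-05), a ratio of 0.464, with 8 of 8 pairs lower. The difference was thus present before KCl. In both arms replicate 1 was below replicate 2 at every time. The 0 h call was lost without c-Fos shRNA 0 h replicate 1, and the 3 h and 6 h calls without c-Fos shRNA replicate 1 or control shRNA replicate 2 of that time. Over all fits run the differences at 0, 3 and 6 h lay from -1.45 to -0.595, from -1.14 to -0.76 and from -1.14 to -0.73.

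No KCl change passed for this probe set. The 6 h change was 0.47 in c-Fos shRNA cultures (limma, adjusted p = 0.155, and 0.00127 with the replicate number in the fit) and 0.35 in control shRNA cultures (adjusted p = 0.279, and 0.00815 with it), and the 3 h change in c-Fos shRNA cultures was 0.28 (adjusted p = 0.48, and 0.039 with it). A second Camk2d probe set, 1456844_at, rose with KCl in both arms. It read 45.4 and 57.6 at 0 h, 47.2 and 71.2 after 1 h, 101 and 132 after 3 h and 203 and 242 after 6 h in c-Fos shRNA cultures. 1456844_at in control shRNA cultures read 69.3 and 73.6 at 0 h, 115 and 118 after 1 h, 263 and 294 after 3 h and 513 and 503 after 6 h. Its arrays climbed with each hour sampled in control shRNA cultures and from 3 h in c-Fos shRNA cultures, and the arms did not overlap at any time. The 3 h change was 0.99 (adjusted p = 0.00072) in c-Fos shRNA and 1.79 (adjusted p = 6.97e-06) in control shRNA cultures, and the 6 h change was 1.86 ± 0.16 (adjusted p = 4.35e-06) and 2.66 ± 0.16 (adjusted p = 2.32e-07), ratios of 3.62 and 6.33. At 1 h the changes were 0.16 (adjusted p = 0.868) and 0.60 (adjusted p = 0.0685, and 0.0109 with the replicate number in the fit). The responses of the arms differed by -0.80 at 3 h and -0.81 at 6 h, which did not pass (adjusted p = 0.305 and 0.17) except with the replicate number in the fit (0.0449 and 0.0242). Between the arms this probe set differed by -0.36 in silenced cultures (adjusted p = 0.156). With KCl the differences passed, at -0.80 after 1 h (0.00445), -1.17 after 3 h (0.000315) and -1.17 after 6 h (0.000358).

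The other 4 tested Camk2d probe sets did not all follow KCl the same way. 1427763_a_at rose at 6 h by 1.09 in c-Fos shRNA cultures (limma, adjusted p = 0.000264) and by 0.80 in control shRNA cultures (0.00195). 1459457_at changed by 0.51 (0.168, and 0.0443 with the replicate number in the fit) and 0.91 (0.0175), and 1439168_at by 0.37 (0.354) and 0.73 (0.0552, and 0.0164 with it). Those 3 had higher means at 6 h than at 0 h in both arms. The last, 1460630_at, changed at 6 h by -0.35 in c-Fos shRNA cultures (0.186, and 0.0468 with the replicate number in the fit) and by -0.69 in control shRNA cultures (0.0117). The calls of 1459457_at and 1460630_at in control shRNA cultures were lost without 0 h replicate 2, and also without 6 h replicate 1 for 1459457_at (0.53, adjusted p = 0.182) and 6 h replicate 2 for 1460630_at (-0.68, adjusted p = 0.0509). Which stretch of the transcript each probe set reads is not given in the sources used here. Between the arms the 6 tested probe sets had 1 direction. All 6 were lower in c-Fos shRNA cultures over the 4 times, by -1.11 for 1422659_at, -0.87 for 1456844_at, -0.63 for 1427763_a_at, -0.57 for 1439168_at, -0.56 for 1459457_at and -0.29 for 1460630_at, each past the threshold (limma, adjusted p from 2.89e-06 to 0.0264). The call of 1460630_at was lost in 7 of the 16 fits that left out 1 array, and the 5 others were kept in all 16. When the probe sets of a gene were averaged, the Camk2d difference between the arms was -0.67 and its KCl change at 6 h was 0.66 in c-Fos shRNA and 0.79 in control shRNA cultures (adjusted p = 0.000591 and 0.000117).

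**Figure D2:**
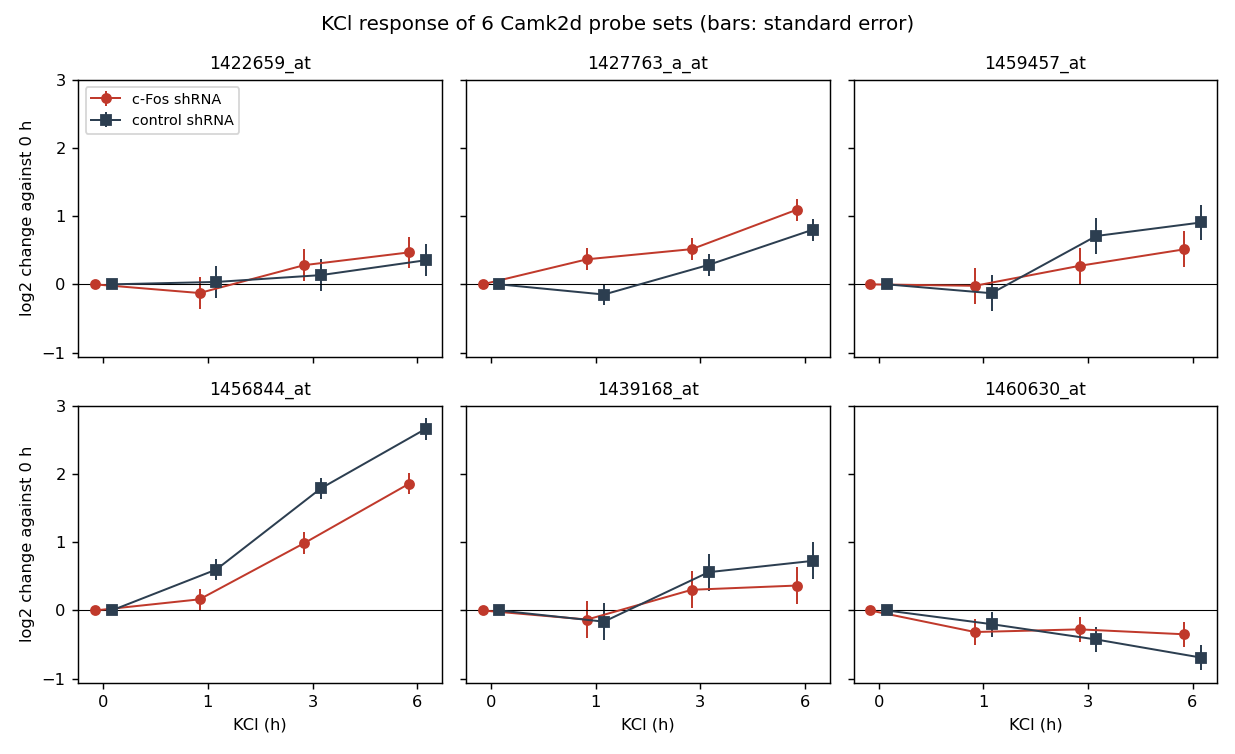
Log2 change against 0 h with its standard error (2 arrays a group) for the 6 tested Camk2d probe sets, by hours of KCl (spaced evenly), with c-Fos shRNA as circles and control shRNA as squares. 1456844_at reached 1.86 and 2.66 at 6 h in c-Fos shRNA and control shRNA cultures, whereas 1460630_at ended at -0.35 and -0.69.

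Camk2g, which codes for the gamma subunit, fell with KCl at 3 h and 6 h in c-Fos shRNA cultures and at 6 h in control shRNA cultures, and was lower in c-Fos shRNA cultures. Probe set 1423941_at read 3848 and 4632 at 0 h, 3687 and 4403 after 1 h, 3190 and 3784 after 3 h and 2595 and 2972 after 6 h in c-Fos shRNA cultures. 1423941_at in control shRNA cultures read 4793 and 5062 at 0 h, 4872 and 5050 after 1 h, 4438 and 4428 after 3 h and 3829 and 4282 after 6 h. At each time both c-Fos shRNA arrays were below both control arrays, and at 6 h both arms were below all of their own 0 h arrays. The 3 h change was -0.31 in c-Fos shRNA cultures (limma, adjusted p = 0.0435) and -0.20 in control shRNA cultures (adjusted p = 0.2, and 0.0204 with the replicate number in the fit). The 6 h change was -0.61 ± 0.10 (adjusted p = 0.000549) and -0.34 ± 0.10 (adjusted p = 0.02). Their difference at 6 h, -0.28 ± 0.14, did not pass (adjusted p = 0.518, and 0.0798 with the replicate number in the fit). Between the arms Camk2g was lower in c-Fos shRNA cultures by -0.35 ± 0.05 over the 4 times (adjusted p = 0.000136; 8 of 8 pairs), by -0.35 at 3 h (0.031) and by -0.51 at 6 h (0.00429). At 0 h and 1 h the differences were -0.23 (0.154, and 0.00986 with the replicate number in the fit) and -0.31 (0.064, and 0.00171 with it).

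The second Camk2g probe set, 1423942_a_at, gave the arm difference at every time. It was -0.35 in silenced cultures (limma, adjusted p = 0.0115), then -0.31 after 1 h (0.0237), -0.35 after 3 h (0.0102) and -0.59 after 6 h (0.000445). Its 6 h KCl change was -0.53 in c-Fos shRNA cultures (0.000341) and -0.29 in control shRNA cultures (0.014). The calls of its arm difference at 0, 1 and 3 h were each lost in some fits that left out 1 array. So was that of its 6 h change in control shRNA cultures. Over all fits run these values lay from -0.44 to -0.26, -0.36 to -0.25, -0.37 to -0.34 and -0.38 to -0.20. Its 6 h arm difference and its 6 h change in c-Fos shRNA cultures were kept in every fit that left out 1 array. Of the calls of 1423941_at, the 6 h KCl change in c-Fos shRNA cultures and the 6 h and 4-time arm differences were kept in every fit that left out 1 array. The 6 h change in control shRNA cultures was lost without 0 h replicate 1, 0 h replicate 2 or 6 h replicate 1 (adjusted p up to 0.14). The 3 h change in c-Fos shRNA cultures was lost without 0 h replicate 2 or 3 h replicate 1 (-0.21 each; adjusted p up to 0.317), and the 3 h arm difference without c-Fos shRNA replicate 1 or either control array of that time (adjusted p up to 0.239). These 3 calls were also lost without further normalisation (adjusted p = 0.0829 for 6 h in control shRNA, 0.123 for 3 h in c-Fos shRNA and 0.0627 for the 3 h arm difference), and both 3 h calls without the intensity trend (0.0845 and 0.0663). The 3 h change in c-Fos shRNA cultures was lost without the filter too (0.0595).

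Camk2a, which codes for the alpha subunit that dominates in forebrain excitatory neurons, was lower in every pair with c-Fos shRNA. Probe set 1457311_at read 1298 and 2216 at 0 h, 1330 and 2144 after 1 h, 1649 and 2196 after 3 h and 1683 and 2323 after 6 h in c-Fos shRNA cultures. 1457311_at in control shRNA cultures read 2237 and 2936 at 0 h, 2225 and 2907 after 1 h, 2364 and 3018 after 3 h and 2456 and 3129 after 6 h. Replicate 1 was below replicate 2 in all 8 groups, and at each time both c-Fos shRNA arrays were below both control arrays, by little between the higher c-Fos shRNA and the lower control array. The difference over the 4 times was -0.52 ± 0.14 (limma, adjusted p = 0.0107), a ratio of 0.698, and was kept in all 16 fits that left out 1 array. At single times it was -0.59, -0.58, -0.45 and -0.46 at 0, 1, 3 and 6 h, none past the threshold (adjusted p = 0.205, 0.216, 0.338 and 0.315) except with the replicate number in the fit (0.000158, 0.000198, 0.00123 and 0.00115). KCl left this probe set within 0.22 of its 0 h level at all times in both arms, and no change passed.

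Among the 3 other tested Camk2a probe sets, 1437125_at and 1442707_at were also lower in c-Fos shRNA cultures over the 4 times, by -0.50 (limma, adjusted p = 0.00457) and -0.33 (0.00615). For 1443876_at the difference was -0.18 (0.191, and 0.035 with the replicate number in the fit). This probe set did respond to KCl. It read 124 and 189 at 0 h, 115 and 184 after 1 h, 285 and 299 after 3 h and 218 and 328 after 6 h in c-Fos shRNA cultures. 1443876_at in control shRNA cultures read 202 and 231 at 0 h, 189 and 229 after 1 h, 218 and 244 after 3 h and 305 and 321 after 6 h. It rose by 0.89 at 3 h and 0.79 at 6 h in c-Fos shRNA cultures (0.00796 and 0.0104) and by 0.59 at 6 h in control shRNA cultures (0.0404). The last call was lost when any 1 of its 4 arrays was left out. It was also lost without further normalisation (0.13), with each array shifted to 1 median (0.0655) and without the filter (0.0587). In c-Fos shRNA cultures the 3 h call was lost without 0 h replicate 1, and the 6 h call without 0 h replicate 1 or 6 h replicate 2. Over all fits run the 3 h and 6 h changes in c-Fos shRNA cultures lay from 0.66 to 1.11 and from 0.56 to 1.01, and the 6 h change in control shRNA cultures from 0.50 to 0.67. 1442707_at rose at 6 h in c-Fos shRNA cultures, by 0.56 (0.0197), lost without 0 h replicate 1 or either 6 h array (adjusted p up to 0.176), and changed by 0.39 in control shRNA cultures (0.0853). With the probe sets averaged, Camk2a changed by 0.52 at 6 h in c-Fos shRNA cultures (adjusted p = 0.0494).

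Camk2b, which codes for the actin-binding beta subunit, did not pass in any comparison. Probe set 1448676_at, its only one, read 3580 and 4156 at 0 h, 3587 and 4560 after 1 h, 3565 and 4238 after 3 h and 3322 and 4249 after 6 h in c-Fos shRNA cultures. 1448676_at in control shRNA cultures read 3948 and 4975 at 0 h, 3890 and 4266 after 1 h, 4077 and 4567 after 3 h and 3856 and 4336 after 6 h. The arms overlapped at all 4 times, although 7 of 8 pairs were lower in c-Fos shRNA cultures. The difference over the 4 times was -0.12 ± 0.07 (limma, adjusted p = 0.236, and 0.00448 with the replicate number in the fit), that at 0 h was -0.21 (0.418, and 0.0175 with it), and the 6 h KCl change was -0.05 in c-Fos shRNA (0.842) and -0.16 in control shRNA cultures (0.43, and 0.0338 with it).

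**Figure D3:**
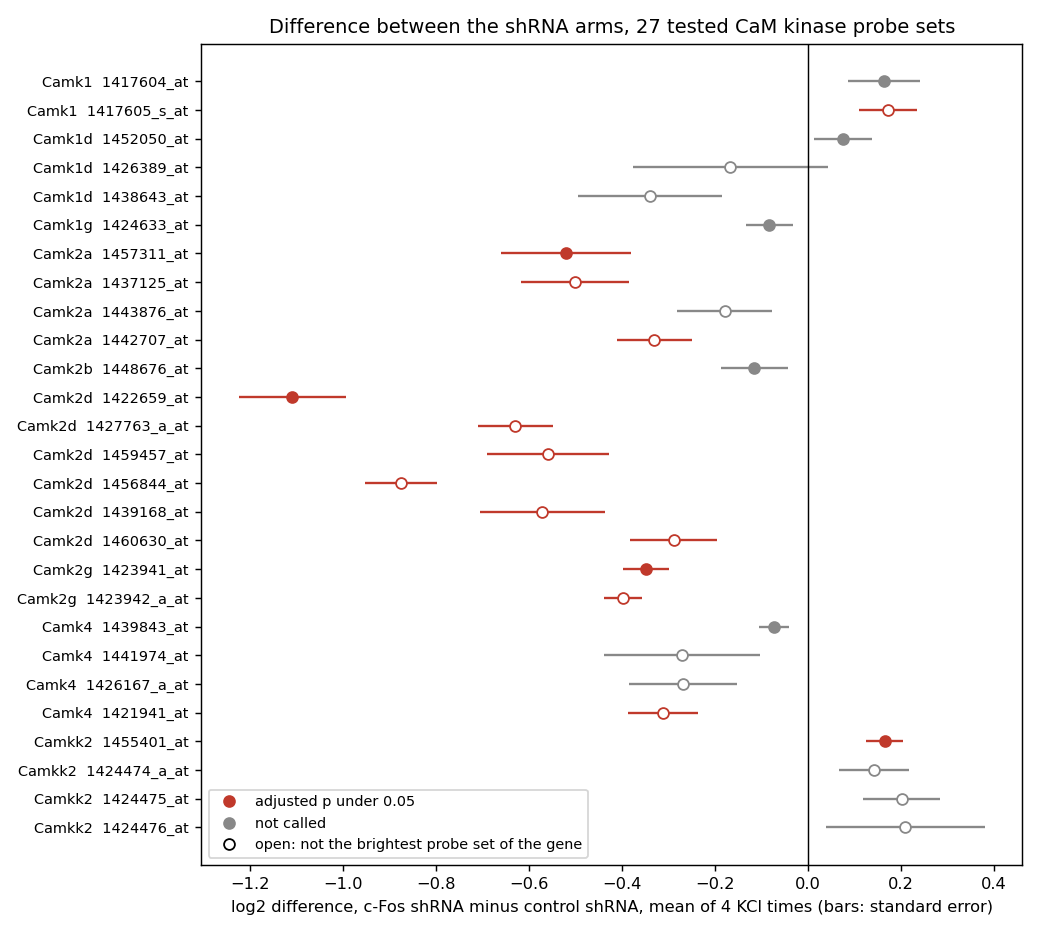
Difference between the arms (c-Fos minus control shRNA, mean of the 4 times, log2 units) with its standard error for the 27 tested kinase probe sets, coloured where the adjusted p was under 0.05 and filled for the brightest probe set of a gene. All 6 Camk2d and both Camk2g probe sets lie left of 0 and are coloured, and the 4 Camkk2 probe sets lie right of 0 with 1455401_at coloured.

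Other measures also differed between the arms, and their part in the kinase differences was not tested. The 3' probe set for 18S ribosomal RNA, an array control, ranged from 3839 to 4558 in c-Fos shRNA and from 4805 to 5602 in control shRNA cultures, without overlap. The arms overlapped for its 2 other probe sets, the 5' one (5218 to 8010 in c-Fos shRNA and 6092 to 9307 in control shRNA cultures) and the middle one (2529 to 4157 and 2913 to 5012). Over the 4 times, of 6 general neuronal markers 2 were higher and 3 lower with c-Fos shRNA (Rbfox3 by -0.74), and of the 5 excitatory markers on the array 2 were higher and 2 lower (Neurod2 by -0.91, Tbr1 by -0.39). None of the 6 inhibitory markers passed, whereas with the replicate number in the fit Slc32a1 did (-0.11, adjusted p = 0.0134), and so did Sst (0.08, 0.0339). Astrocyte markers had 1 higher and 2 lower of 6, the oligodendrocyte lineage 1 lower of 5, progenitors 3 lower of 6, and the 1 microglial and 3 vascular markers above the filter had none. With the replicate number in the fit the higher and lower counts were 3 and 3 for the neuronal list, 3 and 2 for the excitatory, 1 and 3 for the astrocyte, 1 and 1 for the oligodendrocyte, 2 and 3 for the progenitor and 1 and 1 for the vascular list, the last being Dcn (adjusted p = 0.0192) and Col3a1 (0.00927). Over the 4 times the backgrounds were 19.7% higher and 19.4% lower of all tested probe sets. With the replicate number in the fit the background was 52.8% in either direction. No marker was at 0. The summed intensity of each of the 8 lists overlapped between the arms, being 61056 to 66996 in c-Fos shRNA and 59988 to 67697 in control shRNA cultures for the neuronal list and 14041 to 18219 and 16844 to 19093 for the excitatory list. With 6 h of KCl, 5 of 6 inhibitory markers rose in c-Fos shRNA (background 14.7% higher) and 4 of 6 in control shRNA cultures (15.8%). In each arm 1 of 6 astrocyte markers fell (backgrounds 17.4% and 19.6% lower). With the replicate number in the fit 4 and 5 of them fell, against 45.6% and 48.6% of all tested probe sets in either direction.

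Genes that work with the CaM kinases were read from 6 lists of 46 symbols, of which 42 were on the array and tested. Over the 4 times 12 of the 42 were higher and 18 lower in c-Fos shRNA cultures (adjusted p under 0.05), with a median of -0.06 against -0.01 for all tested probe sets; the backgrounds were 19.7% higher and 19.4% lower. With the replicate number in the fit 14 were higher and 19 lower, against 52.8% of all tested probe sets in either direction. The 2 endogenous CaMKII inhibitors differed in direction: Camk2n1 was lower by -0.30 ± 0.03 (limma, adjusted p = 2.59e-05) and Camk2n2 higher by 0.39 ± 0.02 (4.5e-08). Of the 5 phosphatases of CaM kinases, 2 were higher and 2 lower. The higher ones were Ppm1e, a nuclear phosphatase that dephosphorylates CaM kinases, by 0.96 ± 0.05 (2.34e-08), and its cytoplasmic relative Ppm1f, by 0.26 (0.0316). Of the 8 genes of the calcineurin list, 3 were higher and 3 lower. Among the higher ones were the catalytic subunit genes Ppp3ca (0.46, 9.9e-07) and Ppp3cc (0.60, 1.63e-05). Among the lower ones were the modulators Rcan1 (-0.49, 1.58e-06) and Rcan2 (-0.50, 1.17e-06).

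Of the 9 kinases related to the CaM kinases, 2 were higher and 2 lower with c-Fos shRNA over the 4 times (backgrounds 19.7% and 19.4%). The 2 lower ones were the catalytically inactive Camkv, by -0.62 ± 0.10 (limma, adjusted p = 0.000519), and Dapk1, a calmodulin-dependent death-associated kinase, by -0.37 (4.8e-06). Of the 12 substrates and effectors, 4 were higher and 7 lower. Creb1, the CREB gene, was higher by 0.35 (2.5e-05), as were the MEF2 genes Mef2a (0.55, 6e-08) and Mef2c (0.41, 2.8e-07) and the histone deacetylase gene Hdac5 (0.32, 8.09e-05). Prkaa1, which codes for an AMPK catalytic subunit that CaMKK2 phosphorylates, was lower by -1.03 ± 0.06 (1.18e-07), Hdac4 by -0.69 (1.18e-05), and Gria1, an AMPA receptor subunit that CaMKII phosphorylates, by -0.67 (5.69e-07).

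After 6 h of KCl, 7 of the 42 genes rose and 10 fell in c-Fos shRNA cultures and 10 rose and 14 fell in control shRNA cultures, with medians of -0.07 and -0.08 against -0.02 for all tested probe sets in each arm. The backgrounds were 14.7% higher and 17.4% lower in c-Fos shRNA, and 15.8% higher and 19.6% lower in control shRNA cultures. With the replicate number in the fit 8 rose and 16 fell in c-Fos shRNA cultures (24 of 42, against 45.6% of all tested probe sets) and 11 rose and 17 fell in control shRNA cultures (28 of 42, against 48.6%). Ppp3cc changed by -1.39 and -1.81 on the log2 scale in c-Fos shRNA and control shRNA cultures (limma, adjusted p = 1.03e-05 and 1.13e-06). Crtc1, a CREB coactivator that calcineurin dephosphorylates, changed by -0.96 and -0.86, and Ppm1f by -0.83 and -1.22. Rcan2 rose by 1.05 and 1.01 in c-Fos shRNA and control shRNA cultures, whereas Rcan1 changed by -0.78 and -0.64. Hdac4 rose by 1.35 and 1.02, and Hdac5, whose product CaM kinases drive out of the nucleus, by 0.59 and 1.26. For Hdac5 the difference between the arms' responses passed at 6 h (-0.67 ± 0.12, adjusted p = 0.04). It was the 1 gene of the 42 for which it did without the replicate number in the fit. With that number 5 of the 42 passed at 6 h, the others being Ppm1e (-0.58, adjusted p = 0.00976), Eef2k (-0.48, 0.00933), Creb1 (0.43, 0.0232) and Mef2c (-0.23, 0.00735), and Hdac5 also passed at 3 h (-0.57, 0.0159). Of the 9 related kinases, 3 fell in c-Fos shRNA cultures (6 with the replicate number in the fit). In control shRNA cultures 4 fell (5 with that number, when 1 also rose). Among them was Eef2k, the calmodulin-dependent kinase of the translation elongation factor eEF2. It changed by -0.98 in c-Fos shRNA and -0.50 in control shRNA cultures (limma, adjusted p = 5.27e-05 and 0.00471).

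**Figure D4:**
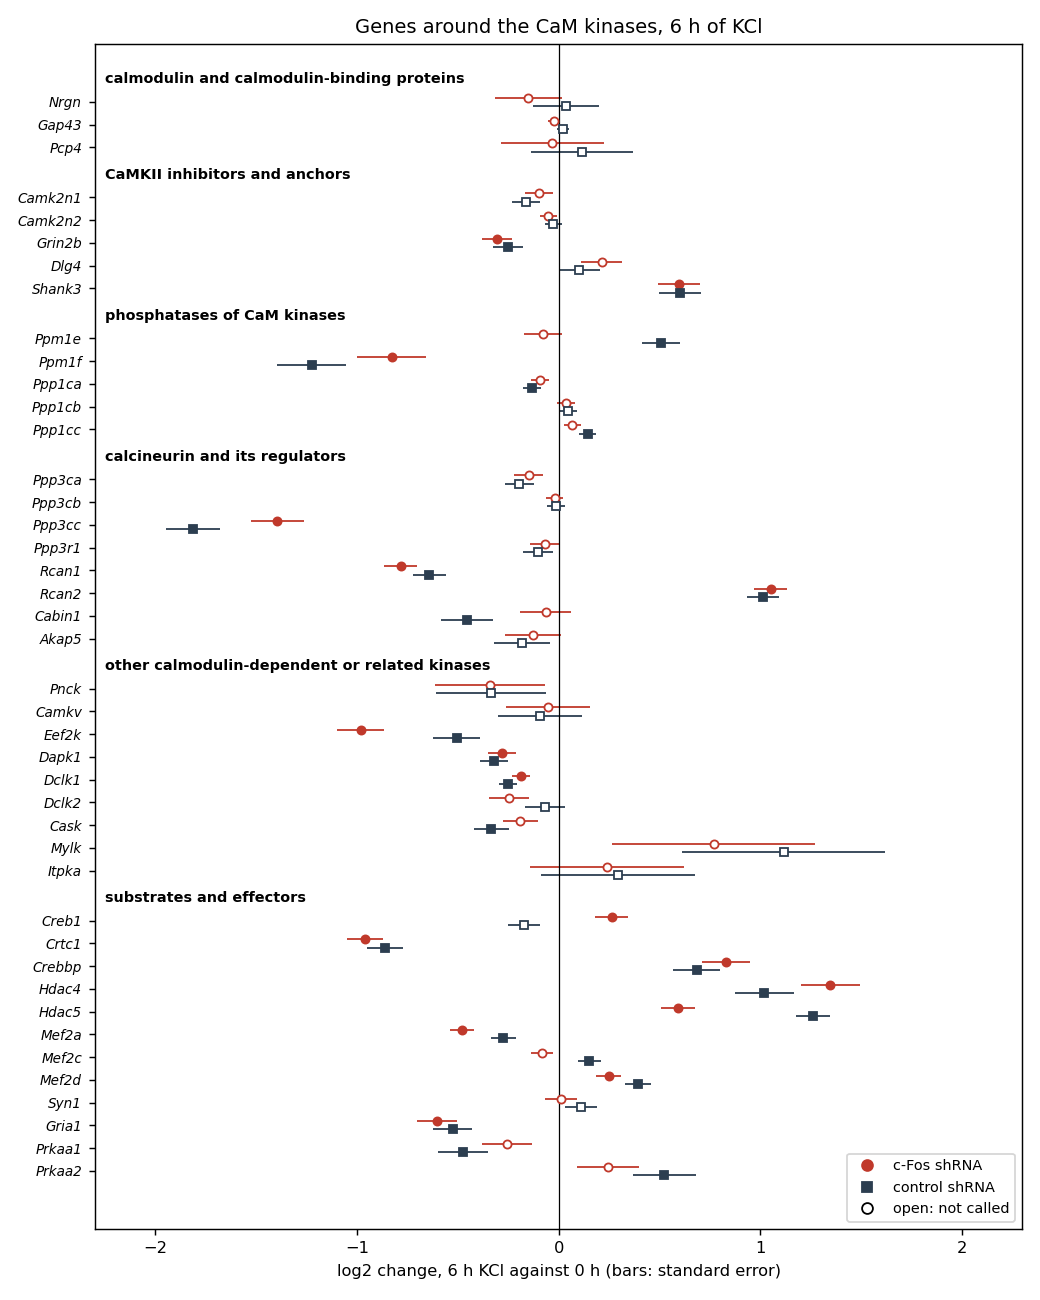
Log2 change at 6 h of KCl against 0 h with its standard error (2 arrays a group) for the 42 tested pathway genes, with c-Fos shRNA as circles above control shRNA as squares and open symbols where the adjusted p was 0.05 or more. Ppp3cc lies farthest left in both arms, and the Hdac5 symbols are apart, at 0.59 and 1.26.

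The promoters of a gene set apart between the arms, Camk2d, and of one that fell with KCl at 3 h, Camk1g, are shown to let the searched motifs be read in their surroundings. They are RefSeq sequences of build GRCm38.p6, the 250 bases before the annotated start, 5′ to 3′ on the gene's strand, chr3:126596701-126596950 on the plus strand for Camk2d and chr1:193370283-193370532 on the minus strand for Camk1g, in lower case with the GC box (GGGCGG or its reverse complement) in capitals.
Camk2d: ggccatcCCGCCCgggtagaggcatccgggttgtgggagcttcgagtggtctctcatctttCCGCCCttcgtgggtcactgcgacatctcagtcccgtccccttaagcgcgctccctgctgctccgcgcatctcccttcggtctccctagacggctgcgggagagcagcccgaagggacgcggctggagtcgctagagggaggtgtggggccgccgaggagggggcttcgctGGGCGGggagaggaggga
Camk1g: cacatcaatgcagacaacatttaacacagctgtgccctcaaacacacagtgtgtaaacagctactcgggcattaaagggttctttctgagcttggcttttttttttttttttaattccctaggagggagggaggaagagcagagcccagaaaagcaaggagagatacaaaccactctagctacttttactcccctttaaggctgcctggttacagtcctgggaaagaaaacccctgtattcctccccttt
The GC boxes of Camk2d begin 243, 189 and 18 bases before its start, and the Camk1g window had none of the motifs searched.

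The table of promoters held 8 windows of 7 of the 10 genes (Camk1, Camk1d with 2 starts, Camk1g, Camk2b, Camk2d, Camkk1 and Camkk2). Searched on both strands, the AP-1 motif TGACTCA, which c-Fos binds as a dimer with a Jun protein, was in 0 of the 8, against 4.46% of all 32851 windows of the same length. The CREB motif TGACGTCA (1.55% of all windows), the EGR motif GCGTGGGCG (0.536%) and the TATA motif TATAAA (12.4%) were likewise in 0 of 8. The shorter CREB half-site TGACG, which the full CREB motif contains, was in the Camk1 and Camkk1 windows (17.8% of all windows), and the GC box in 6 of 8 (32.7% of all windows), those of Camk1d, Camk2b, Camk2d, Camkk1 and Camkk2. These counts describe letters in 250 bases and no binding was measured.

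Over the 8 group means, the profile of Camk2d was closest to that of Camk2a among 13914 genes (r = 0.996, n = 8 group means that share 2 arms and 4 times), followed by Ap3s1 and Yaf2 (r = 0.992 each). The profile most like that of Camk2g was Hadh (r = 0.997), followed by Ehd3 and Fam241b. For Camk1g it was Klhl8 (r = 0.993), for Camkk2 Timm8a1 (r = 0.986), for Camk1 Ttll11 (r = 0.976), for Camk4 Cep170b (r = 0.972), for Camk2b Adgrl1 (r = 0.963) and for Camk1d Lpp (r = 0.961). Within CaMKII, Camk2g had r = 0.407 with Camk2d and r = 0.768 with Camk2b. These values rank profiles and carry no test.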

How the data were processed

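Total RNA from 16 cultures was labelled and hybridised to 16 arrays, per the labels. The deposited values are 1 intensity per probe set and array, on a linear scale (0.51 to 23936); how probes were summarised and scaled is not given in the sources used here. Medians of the arrays differed by 13.2%, above the 10% set as the limit, so log2(intensity + 16) was quantile normalised. Precision is limited by 2 arrays a group. Of 45101 probe sets, 64 array controls were left out and 31526, with a mean above the 30th percentile (5.79 log2 units), were tested with limma 3.58.1 in R 4.3.3 (lmFit on 8 group means, eBayes with an intensity trend, 8 residual degrees of freedom, Benjamini-Hochberg within each of 14 contrasts, adjusted p under 0.05). A log2 change is on the log2(intensity + 16) scale, which understates the change of dim probe sets. Symbols came from the platform annotation, which can be old (34945 probe sets with 1 symbol, 932 with several, 9160 with none); 34741 of the single symbols were found in RefSeq.

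Named genes were the 10 kinases, each by its brightest probe set over all arrays and then by its others, Fos, the 6 pathway lists by the same rule, and the 3 genes most like each member over the group means. The members, the pathway lists and the 8 marker lists were chosen with earlier results of these data known. Some genes of the pathway and marker lists are not reported here. The replicates are labelled biological with no word on separate dissections, and the p-values measure the spread between these cultures, which may be technical. The replicate numbers come from the labels; deviations of same-numbered arrays from their group means correlated in 28 of 28 pairs of groups (r from 0.353 to 0.643, median 0.481), so the numbers were taken to pair the arrays, and the fit with the number as a term (7 residual degrees of freedom) is given beside the printed kinase values whose call it changed and, for the pathway and marker lists, mainly as counts. No array was left out or imputed. The fit was tested on simulated arrays with known changes and noise drawn separately for each array. No replicate effect was simulated, so that test does not cover arrays correlated by replicate number. Alternatives, run for the kinases and not for the pathway genes, were the pseudocount, the normalisation, the filter, the trend, how a gene is represented, the replicate term and leaving out each array in turn.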

Additional observations from a re-analysis of the deposited data

Results flagged for a closer look

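The 6 h KCl response of Camk1d (1452050_at) stood out because both arrays moved 1 way in an arm and the other way in the other: -0.21 in c-Fos shRNA cultures and 0.42 in control shRNA cultures, a difference of -0.63 log2 units. In the test of that difference itself the adjusted p was 0.18 (limma), and 0.0181 with the replicate number in the fit; both values rest on 2 arrays a group.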

How the results depend on the processing

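The pseudocount (1 or 64) and a shift of each array to 1 median moved no count of called kinase genes by over 1.5 times, and no called value changed sign in any fit. Without further normalisation the counts were 1 for KCl at 6 h in control shRNA cultures, 1 for KCl at 3 h in c-Fos shRNA cultures, and 2 and 1 for the arm difference at 0 h and 3 h. Without the filter KCl at 3 h in c-Fos shRNA cultures gave 1, and with a filter at the 50th percentile the 0 h arm difference gave 2. With all probe sets of a gene averaged the counts were 3 for KCl at 6 h in c-Fos shRNA, 2 for KCl at 3 h in control shRNA cultures, and 2 and 2 for the arm difference at 0 h and 1 h; with the brightest probe set alone in the fit these arm counts were also 2 and 2. Without the intensity trend KCl at 3 h in c-Fos shRNA cultures gave 1 and the 3 h arm difference 1. With the replicate block the counts were 3 and 4 for KCl at 3 h and 6 h in c-Fos shRNA cultures, 2 and 5 for KCl at 3 h and 6 h in control shRNA cultures, 6, 4, 4 and 4 for the arm difference at 0, 1, 3 and 6 h, 7 over the 4 times, and 2 for the difference of responses at 6 h; the other counts did not change. With 1 array left out in turn, the counts ranged from 0 to 2 for KCl at 3 h and from 1 to 2 at 6 h in c-Fos shRNA cultures, from 0 to 1 at 3 h and from 0 to 2 at 6 h in control shRNA cultures, from 0 to 2 for the arm difference at 0 h and 3 h, from 1 to 2 at 1 h, 2 in each fit at 6 h and from 4 to 5 over the 4 times; the array left alone in a group was assumed to vary like the others. The causes were not tested. Precision is limited by 2 arrays a group and, for dim probe sets, by signal near background.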
